A study of Mus musculus with 9 samples.

Results

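The 10 genes of serine synthesis and folate-dependent one-carbon metabolism described here are Phgdh, Psat1, Psph, Shmt1, Shmt2, Mthfd1, Mthfd1l, Mthfd2, Mthfd2l and Aldh1l2. They were chosen by name, with earlier results of these data known. Each was represented by the probe set that carries its symbol alone, so that all 10 were among the 19937 genes measured. The RNA came from a mouse cell line that models acute myeloid leukaemia, genotype MLL-AF9/NrasG12D on the genetic background B6/SJL(CD45.2). It carries the MLL-AF9 fusion and the activated allele NrasG12D in every group, controls included. All cells had been transduced with an MSCV retrovirus (LMN in the labels) and were taken at day 5. Control cells received an shRNA against Renilla luciferase (Rluc), and the other groups an shRNA against Eed (Eedsh) or Suz12 (Suz12sh), with 3 Affymetrix whole-transcript arrays in each group. Both targets are subunits of PRC2, the Polycomb complex that methylates histone H3 at silenced genes, and the study asked which genes lie downstream of it in this leukaemia. This is 1 cell line, the hairpins are not named, and nothing in the labels tells whether replicate arrays came from separate cultures. The p-values therefore measure only the spread between these arrays, which may be technical.

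Cells make serine from the glycolytic intermediate phosphoglycerate in a short cytosolic pathway, and serine hydroxymethyltransferases then split serine into glycine and a carbon unit carried on tetrahydrofolate. In mitochondria that unit is oxidised stepwise to formate, which leaves for the cytosol and is built there into purines, thymidylate and methyl groups. Dividing cells, leukaemia cells among them, are known to draw heavily on the mitochondrial branch. In bulk RNA, fewer cells of a type and less RNA per cell cannot be told apart, and this applies to every change below.

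All array values are log2 values made by RMA (robust multi-array average), a change is a difference of group means on that scale, and calls rest on a limma fit of all 19937 genes with a threshold of 0.05 on p-values adjusted by Benjamini and Hochberg's method. Array medians lay between 6.86 and 6.95, and the number of arrays limits the precision. Each shRNA lowered its own target: Eed changed by -1.75 (log2) under Eed shRNA (adjusted p = 3.1e-07) and Suz12 by -1.98 under Suz12 shRNA (adjusted p = 5.44e-08). Of 9 markers of the myeloid leukaemia line, all 9 had a mean above 6.32 in each group. So did 1 of 5 B cell, 3 of 3 erythroid and 4 of 7 fibroblast and stromal markers. Of 7 T and NK cell markers, 2 did in the controls and under Eed shRNA, and 1 under Suz12 shRNA. A mean above this level therefore does not by itself mark a cell type. As a guide to background, 95% of 1027 olfactory receptor genes had a control mean below 6.32. The 10 genes lay above it on all 9 arrays, the lowest value being 6.79.

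The upstream sequences of Mthfd2 and Mthfd2l are shown because these paralogous genes encode alternative enzymes for the same mitochondrial step. Both fell under Eed shRNA. Under Suz12 shRNA Mthfd2 fell and Mthfd2l rose, and each of these Suz12 calls depended on single arrays. The sequences are from RefSeq on GRCm38.p6 and hold the 250 bases before the annotated start, 5′ to 3′ on the strand of the gene, with capitals marking CCAAT boxes on either strand. Mthfd2 lies on the minus strand (chr6:83317605-83317854) and Mthfd2l on the plus strand (chr5:90930946-90931195).
Mthfd2: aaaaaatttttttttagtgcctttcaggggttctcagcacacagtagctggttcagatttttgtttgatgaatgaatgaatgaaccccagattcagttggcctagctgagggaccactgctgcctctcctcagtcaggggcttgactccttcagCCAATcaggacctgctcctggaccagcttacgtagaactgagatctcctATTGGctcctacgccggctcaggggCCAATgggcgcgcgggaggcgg
Mthfd2l: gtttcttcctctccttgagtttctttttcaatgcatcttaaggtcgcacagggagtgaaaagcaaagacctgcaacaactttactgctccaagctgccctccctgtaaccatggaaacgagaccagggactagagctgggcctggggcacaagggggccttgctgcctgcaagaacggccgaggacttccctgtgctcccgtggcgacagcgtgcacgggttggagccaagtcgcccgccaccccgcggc
The Mthfd2 window holds 3 CCAAT boxes and the Mthfd2l window 0. The windows of Shmt2 and Mthfd1l, which fell under each shRNA, also hold 0. Of the 10 genes, 9 matched the promoter table, with 10 windows, and 6 of the 9 had at least 1 CCAAT box there, against 33.8% of all 32851 windows of this length. The former is counted by gene and the latter by window. Psat1, which has 2 windows with 0 and 2 boxes, counts among the 6. None of the 9 had CACGTG (6.02% of all windows), TGATGNAA (3.45%) or TGACGTCA (1.55%) on either strand. These are letter matches in a short window and say nothing of binding.

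Under Eed shRNA all 10 genes fell, and under Suz12 shRNA 9 fell and Mthfd2l rose. Of all genes tested, 21.8% passed under Eed shRNA, 13.1% lower and 8.78% higher, and 21.2% under Suz12 shRNA, 12.9% lower and 8.25% higher. Shares of all genes, here and below, cover 19937 genes, of which only 13366 lay above the background guide of 6.32. The 10 genes all lay above it, and no share among genes of similar level is given here. The median change of the 10 genes was -0.30 (log2) under Eed shRNA and -0.28 under Suz12 shRNA, against -0.01 and -0.02 over all genes. Most falls were small. Aldh1l2 fell more than 2-fold under each shRNA, while the other falls ran from -0.37 to -0.15 on the log2 scale. The 95% intervals of the Aldh1l2 change, -1.45 to -0.91 and -1.33 to -0.80, include falls under 2-fold. Under Eed shRNA the 3 arrays lay wholly below the 3 control arrays for all 10 genes, which 19.4% of all genes did. Under Suz12 shRNA they lay wholly below for 9 genes, as for 19.9% of all genes, and wholly above for Mthfd2l, as for 11.9%. The comparisons share their 3 control arrays, so their likeness is not independent evidence. Nor were the 10 genes chosen independently of these data, which limits what their counts beside the shares of all genes can show.

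**Figure D1:**
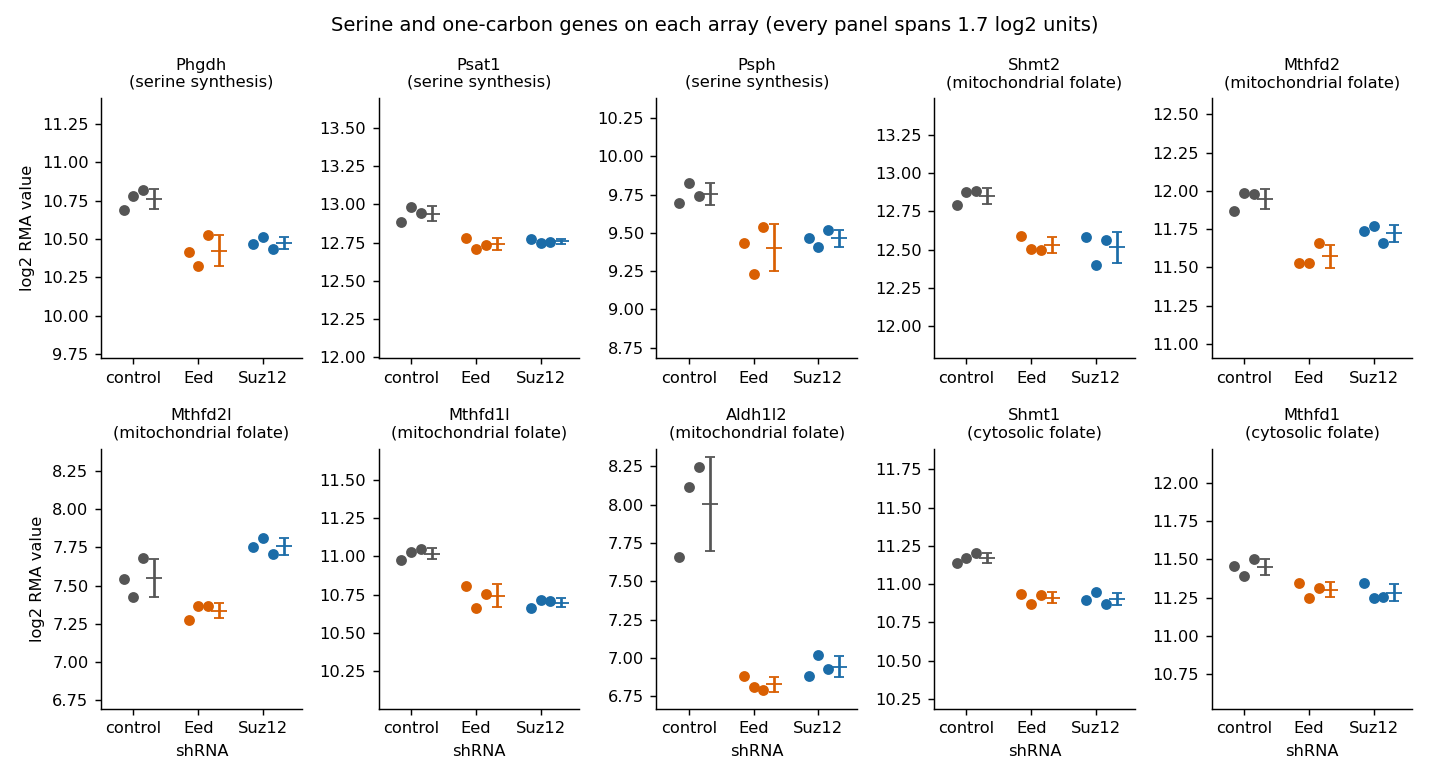
Log2 RMA value of each of the 10 genes on each array, for the control, Eed and Suz12 shRNA. Points are arrays, the horizontal marks and bars are group means ± SD (n = 3), and all panels span the same range. In every panel except Mthfd2l the control arrays stand above all 6 knockdown arrays.

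The 3 genes of serine synthesis fell under each shRNA. Phgdh encodes the dehydrogenase of the committed step. It stood at 10.69, 10.78 and 10.82 (log2) on the control arrays, at 10.41, 10.33 and 10.53 under Eed shRNA, and at 10.47, 10.51 and 10.44 under Suz12 shRNA. Every knockdown array lay below every control array, and the knockdown groups overlapped. The change was -0.34 (SE 0.06, adjusted p = 0.00158) under Eed shRNA and -0.29 (SE 0.06, adjusted p = 0.00428) under Suz12 shRNA, a fall of 1.27-fold and 1.22-fold. A further probe set carries the symbol Phgdh together with Gm6756 and was not used.

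Psat1 encodes the aminotransferase of the next step. Its values were 12.89, 12.98 and 12.94 (log2) in the controls, 12.78, 12.71 and 12.73 under Eed shRNA, and 12.77, 12.74 and 12.75 under Suz12 shRNA. The groups were separated from the controls by small steps, with the narrowest spread in the Suz12 group (12.76 ± 0.02, SD, n = 3). Psat1 changed by -0.20 (SE 0.04, adjusted p = 0.00508) and -0.18 (SE 0.04, adjusted p = 0.009).

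Psph encodes the phosphatase that releases serine. On the control arrays it stood at 9.69, 9.83 and 9.74 (log2), under Eed shRNA at 9.43, 9.23 and 9.54, and under Suz12 shRNA at 9.46, 9.41 and 9.52. The Eed arrays were the most scattered (SD 0.16) and enclosed the Suz12 arrays, but none reached the controls. Psph changed by -0.35 (SE 0.07, adjusted p = 0.00557) and -0.29 (SE 0.07, adjusted p = 0.0166). The Suz12 call did not hold on leaving out replicate 2 of the controls (-0.25, adjusted p = 0.0615) or of Suz12 shRNA (-0.26, adjusted p = 0.0633), nor when each probe set was tested alone (adjusted p = 0.0514).

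Of the 5 mitochondrial folate genes, 4 fell under each shRNA, and Mthfd2l was called in opposite directions. Shmt2 encodes the mitochondrial serine hydroxymethyltransferase. It stood at 12.79, 12.88 and 12.88 (log2) in the controls, at 12.59, 12.50 and 12.50 under Eed shRNA, and at 12.58, 12.40 and 12.56 under Suz12 shRNA. The knockdown groups overlapped each other below the controls. Its change was -0.32 (SE 0.06, adjusted p = 0.00205) and -0.34 (SE 0.06, adjusted p = 0.00171), a fall of 1.25-fold and 1.26-fold.

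Mthfd2 encodes the mitochondrial methylene-tetrahydrofolate dehydrogenase and cyclohydrolase whose promoter window holds the 3 CCAAT boxes. The control arrays were at 11.87, 11.99 and 11.98 (log2), the Eed shRNA arrays at 11.53, 11.53 and 11.66, and the Suz12 shRNA arrays at 11.74, 11.77 and 11.66. The order of the groups was control, Suz12 shRNA, Eed shRNA, and the lowest Suz12 array only just exceeded the highest Eed array. Mthfd2 changed by -0.37 (SE 0.05, adjusted p = 0.000669) under Eed shRNA and by -0.22 (SE 0.05, adjusted p = 0.0131) under Suz12 shRNA. The difference between the knockdowns, 0.15 (95% interval 0.03 to 0.27, unadjusted p = 0.0179), was not called (adjusted p = 0.696). Without Suz12 shRNA replicate 3 the Suz12 call was lost (-0.19, adjusted p = 0.0561).

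Mthfd2l encodes the paralogue for the same step. Its values were 7.54, 7.43 and 7.68 (log2) in the controls, 7.28, 7.37 and 7.37 under Eed shRNA, and 7.75, 7.81 and 7.71 under Suz12 shRNA. Each of the 3 groups was separate from the others, with Suz12 shRNA highest and Eed shRNA lowest, although the gap from the controls was under 0.1 on each side. It changed by -0.21 (SE 0.06, adjusted p = 0.033) under Eed shRNA and by 0.21 (SE 0.06, adjusted p = 0.0378) under Suz12 shRNA. The difference between the knockdowns was 0.42 (SE 0.06, adjusted p = 0.0336), or 1.34-fold. Only 0.176% of all genes, 35 in number, were called in that comparison, with 0.14% of all genes higher under Suz12 shRNA, and 0.01% (2 genes) were called in opposite directions against the control.

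The calls of Mthfd2l depended on single arrays. The rise under Suz12 shRNA was lost in 7 of the 9 fits that left out 1 array, all but those without control replicate 3 or Eed shRNA replicate 1, with changes of 0.15 to 0.27 over the 9 fits and adjusted p up to 0.125. The fall in the Eed group did not pass on leaving out replicate 1 (-0.22) or 3 (-0.15) of the controls, or any Eed array (-0.23 to -0.18). The difference between the knockdowns was lost in 7 of 9 fits, all but those without control replicate 2 or 3, although its size stayed between 0.39 and 0.45. Quantile normalization (0.17, adjusted p = 0.0848) and centring on array medians (0.18, adjusted p = 0.0758) also ended the call under Suz12 shRNA. Fitted with only the arrays of the groups compared, neither change from the controls passed (adjusted p = 0.0704 and 0.0788), nor did they with each probe set tested alone (adjusted p = 0.0834 and 0.0903).

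Mthfd1l encodes the mitochondrial formyl-tetrahydrofolate synthetase that releases formate. It stood at 10.98, 11.03 and 11.05 (log2) in the controls, at 10.81, 10.66 and 10.76 under Eed shRNA, and at 10.66, 10.72 and 10.71 under Suz12 shRNA. The knockdown groups overlapped and lay below the controls. The change was -0.28 (SE 0.05, adjusted p = 0.00158) and -0.32 (SE 0.05, adjusted p = 0.000706).

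Aldh1l2 encodes the mitochondrial formyl-tetrahydrofolate dehydrogenase, which burns the carbon unit to CO2 and yields NADPH. On the control arrays it stood at 7.66, 8.12 and 8.24 (log2), on the Eed shRNA arrays at 6.88, 6.81 and 6.79, and on the Suz12 shRNA arrays at 6.88, 7.02 and 6.93. Control replicate 1 was the lowest control, yet it lay above all 6 knockdown arrays. The change was -1.18 (SE 0.12, adjusted p = 8.73e-05) in the Eed group, a fall of 2.26-fold, and -1.07 (SE 0.12, adjusted p = 0.000167) in the Suz12 group, a fall of 2.09-fold. Leaving out 1 array at a time gave -1.35 to -1.06 and -1.24 to -0.95, and every such fit kept the call.

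Both cytosolic folate genes fell under each shRNA. Shmt1 encodes the cytosolic serine hydroxymethyltransferase. Its control values were 11.14, 11.17 and 11.20 (log2), against 10.93, 10.87 and 10.93 under Eed shRNA and 10.89, 10.95 and 10.87 under Suz12 shRNA. The 6 knockdown arrays formed a single tight group below the controls. Shmt1 changed by -0.26 (SE 0.04, adjusted p = 0.000987) and -0.27 (SE 0.04, adjusted p = 0.000917).

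Mthfd1 encodes the trifunctional cytosolic enzyme that takes formate back onto folate. It stood at 11.46, 11.39 and 11.50 (log2) in the controls, at 11.35, 11.25 and 11.31 under Eed shRNA, and at 11.35, 11.25 and 11.26 under Suz12 shRNA. The groups did not overlap with the controls, but the highest knockdown array came within 0.1 of the lowest control. The change was -0.15 (SE 0.05, adjusted p = 0.0426) and -0.17 (SE 0.05, adjusted p = 0.0264). The Eed call was lost in 7 of the 9 fits that left out 1 array, all but those without control replicate 2 or Suz12 shRNA replicate 1 (-0.18 to -0.12), and the Suz12 call on leaving out replicate 1 (-0.16) or 3 (-0.14) of the controls, or replicate 2 or 3 of Suz12 shRNA (-0.15 each). After cyclic loess neither call stood (-0.10, adjusted p = 0.131, and -0.12, adjusted p = 0.0788), nor after quantile normalization (-0.12, adjusted p = 0.0983, and -0.13, adjusted p = 0.0589).

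**Figure D2:**
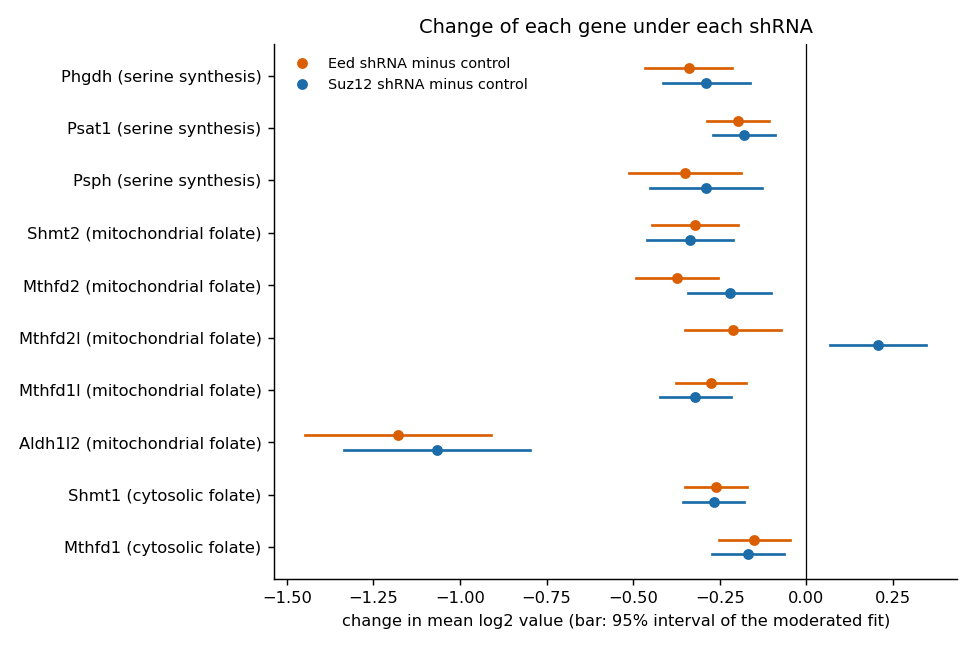
Change in mean log2 value of each gene under Eed shRNA (orange) and Suz12 shRNA (blue) against the controls, with the 95% interval of the moderated fit. Aldh1l2 stands apart at -1.18 and -1.07, and Mthfd2l is the only gene with a blue point to the right of 0.

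Over the 3 groups, a moderated F test called all 10 genes, against 21.1% of all genes. With the knockdowns averaged and set against the controls, 9 fell, against 15.4% of all genes, and Mthfd2l, at -0.002, was not called (adjusted p = 0.986). The Mthfd1 call among them (-0.16, adjusted p = 0.0141) did not pass on leaving out replicate 1 (-0.16, adjusted p = 0.0509) or 3 of the controls (-0.13, adjusted p = 0.0686), nor after cyclic loess (-0.11, adjusted p = 0.0524). Between the knockdowns, Mthfd2l was the only call. The 95% intervals of the Suz12 minus Eed difference were -0.10 to 0.08 (log2) for Shmt1, -0.12 to 0.09 for Mthfd1, -0.14 to 0.11 for Shmt2, -0.15 to 0.06 for Mthfd1l, -0.07 to 0.11 for Psat1, -0.08 to 0.18 for Phgdh, -0.10 to 0.22 for Psph and -0.16 to 0.38 for Aldh1l2. For these 8 genes the level under one shRNA did not differ from that under the other beyond the spread of the arrays.

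The mitochondrial branch was set against the cytosolic one by class and by pairs of counterpart enzymes. The 5 mitochondrial genes had a median change of -0.32 (log2) under each shRNA, the 2 cytosolic folate genes -0.21 and -0.22, and the 3 serine synthesis genes -0.34 and -0.29. For 6 pairs the log2 difference between 2 probe sets on the same array was compared between the 3 control and 6 knockdown arrays by a two-sided exact permutation test, whose smallest p is 0.0238. A shift shows that 2 genes changed unequally, and the level of the difference itself depends on the probes. The pairs, too, were chosen with earlier results of these data known.

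Aldh1l2 minus Aldh1l1, its cytosolic counterpart, was the pair that moved most. The difference was 0.23, 0.67 and 0.62 (log2) on the control arrays, -0.99, -1.04 and -1.15 under Eed shRNA, and -1.03, -0.76 and -0.89 under Suz12 shRNA. It fell by 1.48 on average, since Aldh1l1 rose by 0.39 under Eed shRNA (adjusted p = 0.0009) and by 0.33 under Suz12 shRNA (adjusted p = 0.00235) while Aldh1l2 fell (exact p = 0.0238, adjusted p = 0.0476 over the 6 pairs). Mthfd1l minus Mthfd1 fell by 0.14, from -0.43 ± 0.06 (SD, n = 3) in the controls to -0.56 ± 0.02 and -0.59 ± 0.08 (exact p = 0.0238, adjusted p = 0.0476).

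The other mitochondrial pairs against a cytosolic enzyme were not called. Shmt2 minus Shmt1 changed by -0.06 (exact p = 0.214, adjusted p = 0.257), so that the serine hydroxymethyltransferases fell by amounts not distinguished here. Mthfd2 minus Mthfd1 changed by -0.22 under Eed shRNA but by -0.05 under Suz12 shRNA (exact p = 0.119, adjusted p = 0.179 for both together). Mthfd2l minus Mthfd1 changed by -0.06 and 0.38 (exact p = 0.381, adjusted p = 0.381). That test takes both knockdowns together, so shifts in opposite directions offset each other. The Suz12 arrays (-3.59, -3.44 and -3.55) lay wholly above the control arrays (-3.92, -3.97 and -3.82).

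Between the mitochondrial paralogues, Mthfd2 minus Mthfd2l was 4.40 ± 0.14 (log2, SD, n = 3) in the controls, 4.24 ± 0.07 under Eed shRNA and 3.97 ± 0.02 under Suz12 shRNA (exact p = 0.0238, adjusted p = 0.0476). The highest Eed array and the lowest control array were both at 4.30, so that this separation was barely complete. A call at the smallest p needs all 9 arrays and 3 such pairs, and after quantile normalization or cyclic loess 0 pairs passed. The shifts of Aldh1l2 minus Aldh1l1 (-1.46 and -1.50) and Mthfd1l minus Mthfd1 (-0.14 each) kept their size there, and their adjusted p of 0.0714 is what 2 pairs at the smallest p give in place of 3. Mthfd2 minus Mthfd2l changed by -0.22 and -0.25 (adjusted p = 0.171 and 0.143).

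**Figure D3:**
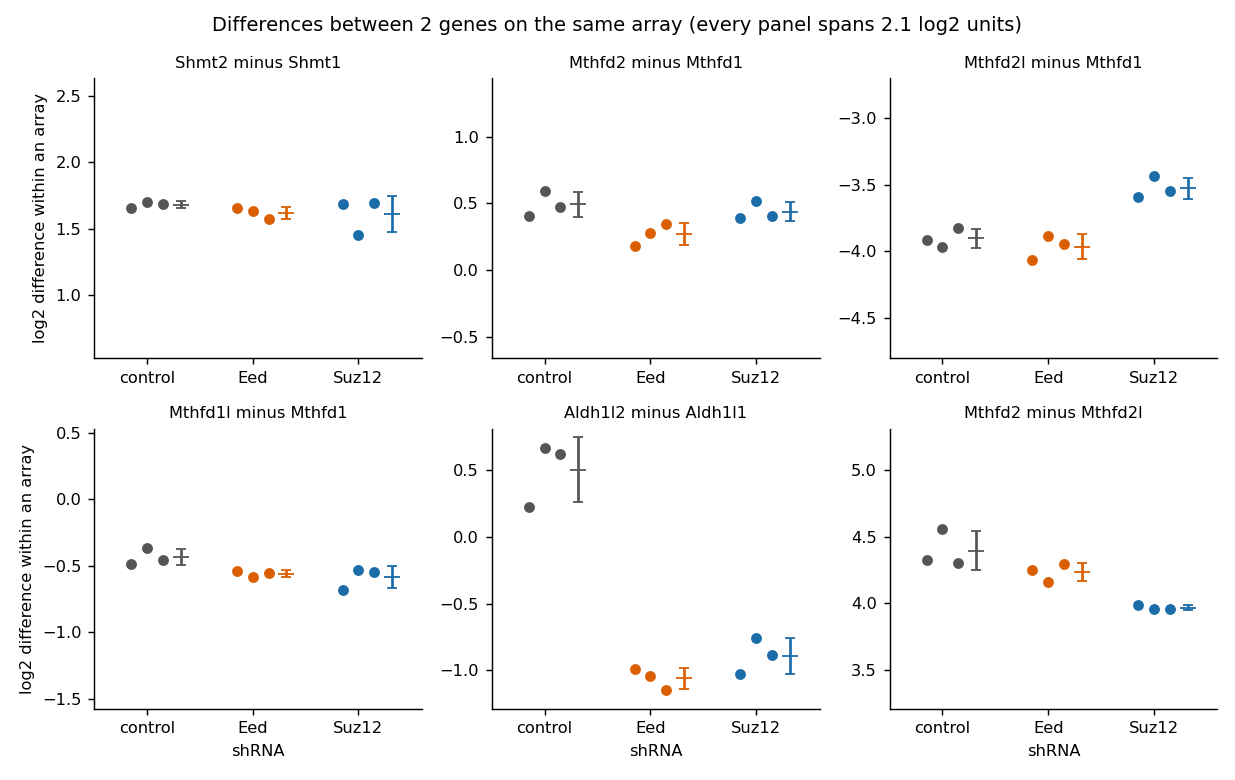
Log2 difference between 2 genes on the same array, for the control, Eed and Suz12 shRNA, with group means ± SD (n = 3) and the same span in every panel. The Aldh1l2 minus Aldh1l1 panel drops from 0.50 in the controls to -1.06 and -0.89, while Shmt2 minus Shmt1 goes from 1.68 to 1.62 and 1.61.

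Around the 10 genes, other parts of folate metabolism moved in both directions. Beside the list counts below, 13.1% of all genes were called lower and 8.78% higher under Eed shRNA. Under Suz12 shRNA these shares were 12.9% and 8.25%. Of 15 other folate cycle and transport genes measured, 7 fell and 2 rose under Eed shRNA, and 7 fell and 3 rose under Suz12 shRNA, with a median change of -0.19 and -0.17 (log2). Fpgs, which adds the glutamate tail that keeps folates in the cell, changed by -0.50 and -0.51, the folate carrier gene Slc19a1 by -0.42 and -0.48, and Slc25a32, which carries folate into mitochondria, by -0.41 and -0.38. Aldh1l1 was among the risen. Among 19 genes of glycine cleavage and of glycine and serine use, 6 fell under each shRNA and 13 were not called. Those that fell under Eed shRNA included the neutral amino acid transporter Slc1a4 (-0.68 and -0.65), the glycine transporter Slc6a9 (-0.70 and -0.48), Slc38a2 (-0.20 and -0.16) and the transsulfuration enzyme Cth (-1.06 and -0.61). Cth lost its Suz12 call in every fit that left out 1 array except that without control replicate 1 (-0.66 to -0.45), and Slc38a2 without Suz12 shRNA replicate 2 (-0.14). The 6 that fell under Suz12 shRNA became 3 without control replicate 2 or Suz12 shRNA replicate 1, and with cyclic loess.

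Of 9 methionine cycle and polyamine genes, 3 fell under Eed shRNA, and 2 fell and 1 rose under Suz12 shRNA. Mat2b, a regulatory subunit of S-adenosylmethionine synthetase, changed by -0.39 and -0.26 (log2), and the spermidine synthase gene Srm by -0.18 and -0.19. Ahcyl2 was at 0.17, not called, and 0.28, and was called under Eed shRNA without control replicate 3 (0.24), after quantile normalization (0.21) and after cyclic loess (0.22). Odc1 changed by -0.24 and -0.14, and only the Eed change was called. That call was lost in 7 of the 9 fits that left out 1 array, all but those without Eed shRNA replicate 1 or Suz12 shRNA replicate 1 (-0.31 to -0.16).

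Genes of purine synthesis, which consumes the carbon units, mostly fell, as did genes of pyrimidine and deoxynucleotide metabolism. Among 12 de novo purine genes, 9 fell and 1 rose under Eed shRNA, and 8 fell and 1 rose under Suz12 shRNA, with a median change of -0.26 and -0.21 (log2). Ppat, the amidotransferase of the committed step, changed by -0.48 and -0.50, Gart, which uses formyl-tetrahydrofolate, by -0.35 and -0.32, Pfas by -0.35 and -0.33, and Paics by -0.28 and -0.21. The gene that rose was Impdh1 (0.20 and 0.23), named after its values were seen, and its Eed call was lost without control replicate 1 or Eed shRNA replicate 3. Of 10 pyrimidine and deoxynucleotide genes, 9 fell under each shRNA and 1 was not called, with a median of -0.34 and -0.27. The thymidine kinase gene Tk1 changed by -0.54 and -0.49, Dhodh by -0.50 and -0.51, Dctd by -0.37 and -0.35, and Umps by -0.36 and -0.33.

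Phgdh, Psat1, Shmt2 and Mthfd2 are known targets of the amino acid response factor ATF4, and other genes of that response moved in both directions. Of 23 such genes, 12 fell and 2 rose under Eed shRNA and 11 fell and 2 rose under Suz12 shRNA, with a median of -0.19 under each. Pck2, the mitochondrial phosphoenolpyruvate carboxykinase, changed by -0.57 and -0.54 (log2) and the transaminase gene Gpt2 by -0.72 and -0.62. In the other direction, the cystine transporter gene Slc7a11 rose 3.10-fold and 2.96-fold (1.63 and 1.57), and the mTORC1 inhibitor gene Ddit4 changed by 0.73 and 0.59. Without control replicate 2, 4 genes of the response were higher under each shRNA in place of 2. The count of falls under Suz12 shRNA was 8 without control replicate 3 or Suz12 shRNA replicate 2. That under Eed shRNA was 10 without Eed shRNA replicate 2 or 3. With each probe set tested alone these counts were 8 and 10. Atf4 itself changed by -0.19 (adjusted p = 0.00566) and -0.19 (adjusted p = 0.0065).

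Of 17 cytosolic aminoacyl-tRNA synthetase genes measured, whose products load amino acids onto tRNA, 13 fell under Eed shRNA and 11 under Suz12 shRNA, and the rest were not called. Cars changed by -0.38 and -0.35 (log2), Yars by -0.35 and -0.25, Gars, the glycyl-tRNA synthetase gene, by -0.31 and -0.23, and Tars by -0.25 and -0.30. The count under Eed shRNA was 8 without control replicate 2, Eed shRNA replicate 1 or Eed shRNA replicate 2, and that under Suz12 shRNA was 7 without Suz12 shRNA replicate 3. With cyclic loess the counts were 8 and 7.

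Glycolysis supplies the starting material of serine synthesis. Of 15 genes, 3 rose, 1 fell and 11 were not called under each shRNA, beside 21.8% and 21.2% of all genes called in either direction, with a median change of 0.03 in each. Aldoc, an aldolase isoform gene, rose by 0.55 and 0.51 (log2) and the glucose transporter gene Slc2a3 by 0.24 and 0.27. Slc2a1 changed by 0.16 and 0.15, and Pfkp by -0.20 each. After cyclic loess 5 genes rose under each. The Slc2a1 calls were lost on leaving out control replicate 1 (0.14 and 0.13), the Eed call also without Eed replicate 1 (0.15) or 3 (0.14), the Suz12 call also without Suz12 replicate 1 (0.16) or 2 (0.12), and both after centring on array medians. Pfkp lost both calls on leaving out control replicate 2 (-0.19 each) or 3 (-0.18 and -0.19), the Eed call also without any Eed array (-0.21 to -0.19), the Suz12 call also without Suz12 replicate 3 (-0.14), and both after quantile normalization or cyclic loess.

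Among 12 regulators of the pathway measured, 5 fell and 1 rose under Eed shRNA and 6 fell and 1 rose under Suz12 shRNA. Myc, a transcription factor known to act on serine and nucleotide synthesis genes, stood at 12.91 (log2) in the controls, 12.53 under Eed shRNA and 12.48 under Suz12 shRNA, changes of -0.37 (adjusted p = 0.000268) and -0.42 (adjusted p = 0.000128). Its partner gene Max changed by -0.21 and -0.20 and Mtor by -0.20 and -0.23. The p53 ubiquitin ligase gene Mdm2 rose by 0.29 and 0.32.

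**Figure D4:**
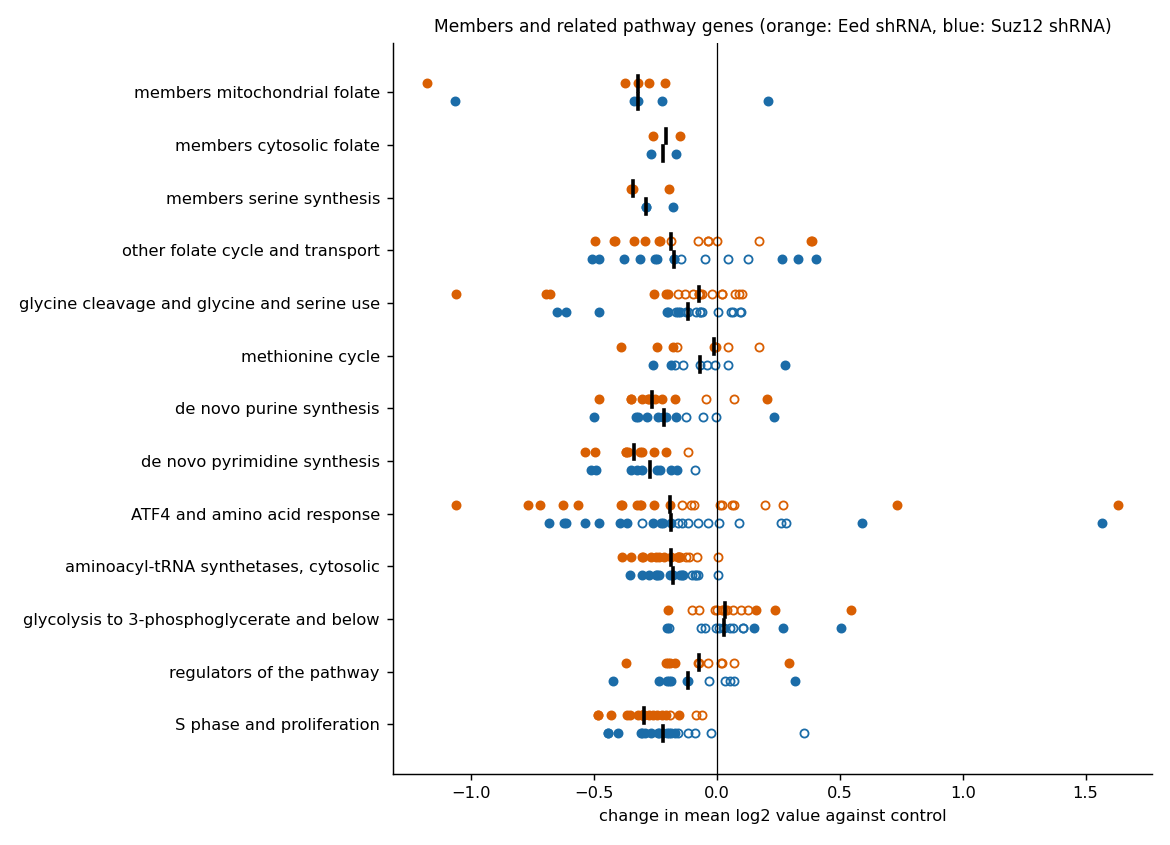
Change in mean log2 value against the controls for the genes of each list, under Eed shRNA (orange) and Suz12 shRNA (blue). Filled points passed an adjusted p of 0.05, open points did not, and black bars are list medians, which lie near 0 for glycolysis (0.03 and 0.03) and at -0.32 for the mitochondrial folate genes.

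Proliferation genes and myeloid maturation markers moved in the same groups, and their part in the changes of the 10 genes was not tested. Of 19 S phase and proliferation genes, 16 fell under Eed shRNA and 14 under Suz12 shRNA, with a median of -0.30 and -0.22 (log2). Cdt1 (-0.48 and -0.44) and Cdc6 (-0.48 and -0.44), which license replication origins, led them, with the mitotic kinase gene Aurkb (-0.43 and -0.40) and the helicase subunit gene Mcm3 (-0.37 and -0.27). Of 10 neutrophil markers, 7 were higher under Eed shRNA and 9 under Suz12 shRNA, and their summed level (log2 of the summed linear values) was 13.04 to 13.12 in the controls, 13.98 to 14.03 under Eed shRNA and 14.33 to 14.45 under Suz12 shRNA. In the comparison that called Mthfd2l, Suz12 against Eed shRNA, 5 of the 10 neutrophil markers were called higher, against 0.14% of all genes, with a median difference of 0.35. They were Ltf (1.02), Camp (0.69), Ngp (0.59), Mmp9 (0.57) and Lcn2 (0.40), named after their values were seen, and their part in the Mthfd2l difference was not tested. The count was 3 without Eed shRNA replicate 2 or 3 or any Suz12 array, and with each probe set tested alone. Of 13 eosinophil, basophil and mast cell markers, 7 were higher and 1 lower under each shRNA (summed level 12.21 to 12.24, 13.65 to 13.71 and 13.65 to 13.72). Against the control, 8.78% of all genes were called higher under Eed shRNA and 8.25% under Suz12 shRNA. Of 11 monocyte and macrophage markers, 6 were higher under each shRNA (13.47 to 13.56, 14.33 to 14.41 and 14.32 to 14.36). Control means above 6.32 were found for 8 of the neutrophil, 7 of the eosinophil, basophil and mast cell, and 8 of the monocyte markers. Of 7 fibroblast and stromal markers, 1 was higher under each shRNA (10.35 to 10.45, 10.76 to 10.80 and 10.71 to 10.79), and among 7 markers of T and NK cells the single call was 1 lower under Suz12 shRNA (8.56 to 8.64, 8.59 to 8.64 and 8.55 to 8.60). The 9 markers of the leukaemia line itself also moved, with 5 higher and 1 lower under Eed shRNA. Under Suz12 shRNA 4 of them were higher and 1 lower. Their summed level was 14.94 to 14.97 in the controls and 15.15 to 15.20 under each shRNA. Of 3 erythroid markers, 1 was higher under Eed shRNA.

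Genes whose profile over the 9 arrays was most like that of Aldh1l2, each centred on its own control mean, were Tifa, Irf8, Rassf4 and Tifab, with root mean square differences of 0.13, 0.15, 0.16 and 0.19 (log2). Tifa, a signalling adaptor gene, changed by -1.26 and -1.20, Irf8, a monocyte and dendritic cell transcription factor gene, by -1.20 and -1.03, Rassf4 by -1.36 and -1.14, and Tifab by -1.16 and -1.05. The profile of Shmt1 was matched most closely by D11Wsu47e, Ddx49, Nup160 and Rexo2, with root mean square differences of 0.02 for D11Wsu47e and 0.03 for the other three.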

How the data were processed

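RNA of 9 arrays (3 control, 3 Eed shRNA and 3 Suz12 shRNA) was measured. The authors deposited log2 values that they made with RMA, per the submitters' processing notes, with the version and probe annotation not given in the sources used here. Of 34760 probe sets, 21640 carried 1 symbol, 1321 several (not used) and 11799 were unnamed here. Where a gene had several, the brightest on average was kept, which gave 19937 genes without any filter on level. Each of the 10 genes had 1 such probe set. Group means were compared by limma 3.58.1 (R 4.3.3; lmFit and eBayes, all 3 groups together, 6 residual degrees of freedom), two-sided, with Benjamini-Hochberg adjustment over all genes, and was checked on simulated data. Pairs of genes were compared by exact permutation.

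The genes, lists, pairs and rules were chosen with earlier results of these data known. All 10 genes are named, with up to 4 genes of each related list by smallest adjusted p over the knockdowns' mean. For the 2 genes with the smallest F test p, the 4 genes with the most similar profile are named too. Listed genes without a probe set of their own symbol were not analysed here. The alternatives were other scalings, filters, probe set rules, variance models, samples and a replicate block. The deviations of same-numbered arrays of different groups had r of -0.17 to 0.20 over 9 pairs, with no reference level given for unlike numbers. The labels name no pairing, so the numbers were not taken as pairing in the main fit.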

Additional observations from a re-analysis of the deposited data

Results flagged for a closer look

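Mthfd2l was called different between the knockdowns, a call that was not stable. Suz12 shRNA minus Eed shRNA was 0.42 on the log2 scale (adjusted p = 0.0336 by limma), with all 3 Suz12 arrays above and all 3 Eed arrays below the controls. It was the only one of the 10 genes for which the knockdowns differed by that test. In the same comparison 5 of 10 neutrophil markers were called higher under Suz12 shRNA, and their part in the Mthfd2l difference was not tested.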

How the results depend on the processing

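The count of the 10 genes called under Eed shRNA lay between 8 and 10 and that under Suz12 shRNA between 7 and 10 over all alternatives run, and no called change reversed. The single call between the knockdowns, Mthfd2l, went to 0 when each probe set was tested alone (adjusted p = 0.184) and to between 0 and 1 without 1 array. With the replicate number as a block (replicate block) it also went to 0 (adjusted p = 0.102), and the calls of Mthfd2l under Eed shRNA (adjusted p = 0.0534) and Suz12 shRNA (adjusted p = 0.0596) were lost, as was that of Slc2a1 under Suz12 shRNA (adjusted p = 0.0539), with no other call among the 10 genes changed. Of the 9 arrays, 4 deviated most like an array of the same number, and no chance level is given here for that count. Of the 6 pairs of genes, 3 passed, against 0 after quantile normalization, 0 after cyclic loess and 0 without any 1 array, where the smallest possible adjusted p exceeds the threshold for 3 pairs. After those scalings the Aldh1l2 (-1.46 and -1.50) and Mthfd1l (-0.14 each) shifts kept their size, and each missed the threshold (adjusted p = 0.0714) because 2 pairs in place of 3 reached the smallest p. Among the genes called against the control, 40.2% were higher under Eed shRNA and 38.9% under Suz12 shRNA. These shares of the calls were 50.6% and 52.5% after cyclic loess, and 29.4% and 32.5% after centring on array medians. Values have no depth, and the number of arrays sets their precision.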
